A study of Mus musculus with 12 samples.

Results

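Complex I, NADH:ubiquinone oxidoreductase, is the entry point of the respiratory chain for electrons from NADH, and the genes of its nuclear-encoded parts carry the symbol Nduf in the mouse. Every row of the 2 deposited count tables whose gene name starts with Nduf was taken, which gave 51 genes of the 17260 in the table of the constitutive knockout and of the 17325 in the table of the inducible knockout. All 51 were in both tables and all passed the filter on low counts. By name and known place in the complex they comprised 37 subunits, 8 assembly factors (names starting with Ndufaf), Ndufa4 with its paralog Ndufa4l2, and 4 near-identical copies of subunit genes (Ndufab1-ps, Ndufb4b, Ndufb4c and Ndufs6b). Reads of a copy and of its parent gene (Ndufab1, Ndufb4 or Ndufs6) may have been split between them by the counting, so values of these 7 genes are uncertain in that respect.

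The study sequenced RNA of the left ventricle of male mice to examine Ddx5, an RNA helicase, in the heart, with 3 libraries in each of 4 groups. All mice carried floxed Ddx5 alleles (DDX5fl/fl). The constitutive knockout, mCKO, also carried MYH6Cre, which expresses Cre recombinase from the Myh6 promoter, active in cardiomyocytes. These mice were untreated and 8 weeks old, like the CTR1 mice, which had no Cre. The inducible knockout, iCKO, carried Myh6MerCreMer, a tamoxifen-activated Cre under the same promoter, and both iCKO mice and their CTR2 controls without Cre received 20 mg/kg of tamoxifen per day for 5 days, with collection at 7 days of tamoxifen as the design text puts it. Neither control group carried Cre, so effects of the recombinase itself and of the loss of Ddx5 cannot be told apart in either comparison. Because the promoter is that of cardiomyocytes, the other cells of the ventricle were not targeted and their Ddx5 RNA remains in these values. The age of iCKO and CTR2 mice is not given beyond their being matched to each other. No label says that replicates came from separate animals, so p-values measure the spread between these libraries, which may be technical.

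Complex I has the shape of an L. Its peripheral arm reaches into the mitochondrial matrix and holds the N module, which oxidises NADH through a flavin and passes electrons along iron-sulfur clusters, and the Q module, which hands them to ubiquinone. The membrane arm, with a proximal and a distal part, pumps protons and is built around core subunits encoded by mitochondrial DNA, which carry other names and were not analysed here. Assembly factors help modules to form and join and are not retained in the finished enzyme. Heart muscle is among the tissues richest in the complex, and inherited defects of its subunits and assembly factors are a known cause of mitochondrial cardiomyopathy in humans.

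Library totals lay between 19682268 and 25871882 counts. Levels below are CPM, reads of a gene as a share of the library on a common scale, normalised by TMM, which balances the bulk of genes between libraries. Ddx5 had 232, 231 and 217 CPM in mCKO and 639.6, 638 and 397 CPM in CTR1, and 217, 218 and 190.0 CPM in iCKO and 566, 704 and 598 CPM in CTR2, so every knockout library was below every control library of its experiment. Replicate 3 of mCKO and CTR1 stood apart from replicates 1 and 2 of its group, and same-numbered libraries of these groups deviated together, although numbers 1 and 2 were not told apart, so values with the replicate number as a block are given beside the others in that experiment. The summed level of 10 ventricular cardiomyocyte markers lay at 74016 to 104390.0 CPM in mCKO and 87556 to 120199 CPM in CTR1, and at 51339.8 to 62033 CPM in iCKO and 104296 to 116506 CPM in CTR2. Of these 10 markers 7 fell in mCKO with the block and 8 fell in iCKO. Over all genes tested, 6.45% fell and 7.32% rose in mCKO with the block, and 19.5% fell and 25.2% rose in iCKO. Macrophage markers summed to 364 to 543 CPM in mCKO and 271 to 339.9 CPM in CTR1, and to 502 to 869 CPM in iCKO and 185 to 242 CPM in CTR2, and of 8 markers 7 rose in mCKO with the block and 8 in iCKO. Fibroblast markers summed to 2586 to 4099 CPM in iCKO and 889 to 965 CPM in CTR2, atrial cardiomyocyte markers to 4013 to 8065 CPM in iCKO and 142 to 359 CPM in CTR2, and endothelial markers to 1148 to 1304 CPM in iCKO and 1664 to 1894 CPM in CTR2. These lists were not uniform in iCKO. Of 8 fibroblast markers 4 rose and 1 fell, of 4 atrial markers tested 2 rose and 1 fell, and of 8 endothelial markers 4 fell. Smooth muscle and pericyte markers summed to 1026 to 1201 CPM in iCKO and 1636 to 1693 CPM in CTR2, and of 8 markers 3 rose and 3 fell. Their sums in mCKO and CTR1 overlapped. Atrial markers summed to 692 to 1649 CPM in mCKO and 169 to 363 CPM in CTR1. Of the 4 tested there, 1 rose with the block, and the changes of 2 were below 0. Fibroblast markers summed to 1095, 929.8 and 1749.9 CPM in mCKO and 901, 904 and 1512 CPM in CTR1, each mCKO library being above the CTR1 library of its number, and 4 of 8 rose in mCKO with the block, while the endothelial sums of mCKO and CTR1 overlapped. The atrial markers Bmp10 and Sln were at 0 in at least 1 library, and no marker of the other lists was.

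Complex I RNA was abundant in these ventricles, and subunits far exceeded assembly factors. The 51 genes took between 1.43 and 1.97% of all counts in mCKO and between 1.58 and 1.99% in CTR1, and between 0.739 and 1.01% in iCKO and between 1.40 and 1.56% in CTR2, so the shares overlapped in the constitutive model and did not in the inducible one. Per kilobase of principal transcript, the median subunit stood at 355 CPM in mCKO, 423 in CTR1, 189 in iCKO and 376 in CTR2. The median Ndufaf gene stood at 24.4 CPM per kilobase in mCKO, 23.1 in CTR1, 12.9 in iCKO and 18.8 in CTR2. Among subunits the highest level per kilobase was that of Ndufb8, a distal membrane arm subunit, at 1034 ± 222 in mCKO, 1156 ± 185 in CTR1, 502 ± 109.7 in iCKO and 1026 ± 67.1 in CTR2 (CPM per kilobase, SD, n = 3 each). Every Ndufaf gene lay below every subunit by this measure in all 4 groups, the closest subunit being Ndufb2 at 60.8 ± 20.7 CPM per kilobase in mCKO, 66.5 ± 16.9 in CTR1, 31.3 ± 10.7 in iCKO and 46.9 ± 9.45 in CTR2. Levels per kilobase rest on 1 length per gene, the median over its principal transcripts where there were several. For Ndufb2 it is 2413 bases, from 2 transcripts. For the subunit gene Ndufb1 no principal transcript was annotated, and the median of 4 transcripts, 667 bases, was used.

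Complex I RNA was lower in iCKO than in CTR2 ventricles. All 51 log2 fold changes against CTR2 were below 0, 39 genes fell at an adjusted p under 0.05 in edgeR's quasi-likelihood test with Benjamini-Hochberg adjustment, and none rose. Of the 13548 genes tested in that comparison 19.5% fell and 25.2% rose. In 43 of the 51 genes all 3 iCKO libraries lay below all 3 CTR2 libraries, and in none above, where 27.4% of all tested genes lay below and 31.3% above. Summed over the 37 subunits, the level was 7173, 6119.8 and 8882 CPM in iCKO and 15492, 14410.5 and 13904 CPM in CTR2, so that the iCKO mean was 50.6% of the CTR2 mean. The groups did not overlap, and the highest iCKO library, replicate 3, was well under the lowest CTR2 library. In whole tissue, fewer cardiomyocytes and less of these RNAs per cardiomyocyte cannot be told apart, and the cardiomyocyte marker sum stood at 50.2% of CTR2. Marker sums were lower for cardiomyocytes, endothelium, and smooth muscle and pericytes, and higher for macrophages, fibroblasts and atrial cardiomyocytes. Their parts in the decrease were not tested.

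**Figure D1:**
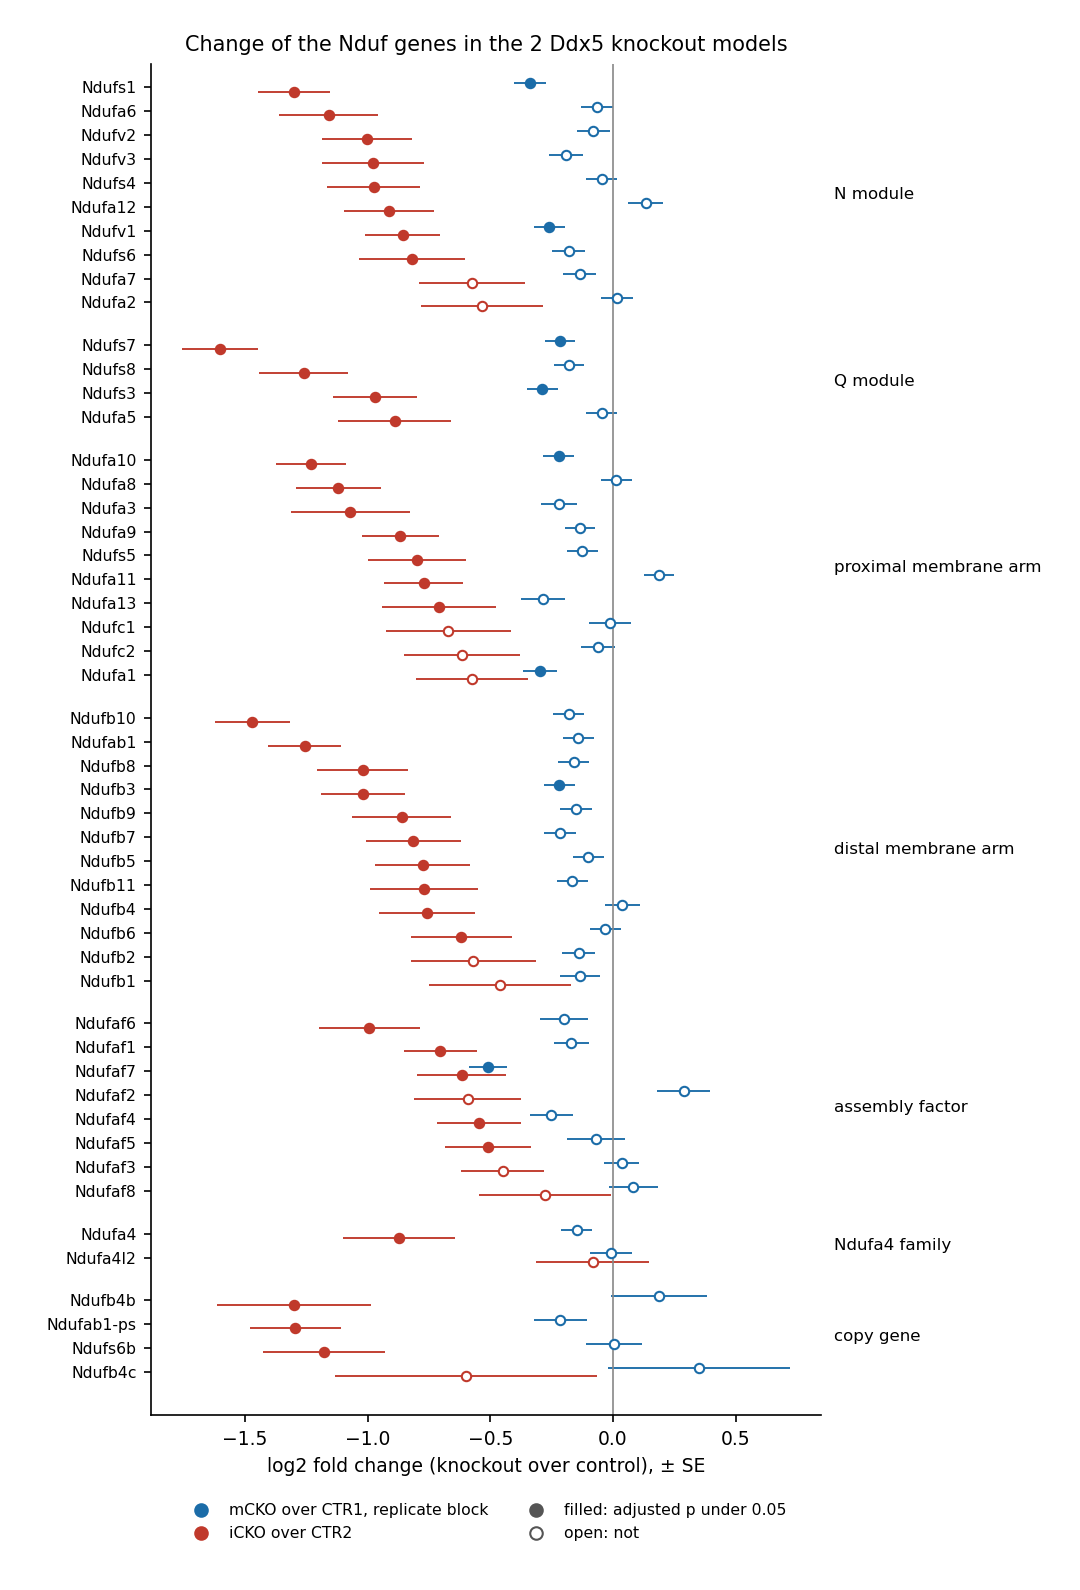
Log2 fold change with its standard error for 50 of the 51 Nduf genes, mCKO over CTR1 with the replicate block in blue and iCKO over CTR2 in red, grouped by place in the complex; filled points passed an adjusted p of 0.05. All red points lie below 0 and most are filled, while few blue points are filled, all below 0.

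The decrease of RNA in iCKO was seen among nuclear genes of all 4 modules. All 5 Q module genes fell, with a median log2 fold change of -0.99, as did 8 of 10 N module genes (median -0.94), 7 of 10 genes of the proximal membrane arm (median -0.78) and 10 of 12 of the distal membrane arm (median -0.80). Over all genes tested the median was 0.03. Each gene was counted in a single module. Ndufa9, which lies in the peripheral arm next to the membrane, was counted with the proximal arm, and Ndufab1, which is present in both arms, with the distal arm. The ranges of the 4 modules overlapped widely, from -1.60 to -0.89 in the Q module and from -1.47 to -0.46 in the distal arm. Below, fold changes are log2 values with their standard error after ±, and adjusted p-values come from the same edgeR test over all genes.

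The Q module held the gene with the lowest fold change of the set. Ndufs7, the core subunit that carries the last iron-sulfur cluster before ubiquinone, had 138, 107 and 133 CPM in iCKO and 389.8, 398 and 369 CPM in CTR2. The groups were far apart, with the iCKO mean at 32.7% of CTR2 and a log2 fold change of -1.60 ± 0.16 (adjusted p = 0.00017). Ndufs8, another iron-sulfur subunit of this module, had 102, 92.8 and 136 CPM in iCKO and 286, 266 and 248 CPM in CTR2, a change of -1.26 ± 0.18 (adjusted p = 0.00094). In both genes each iCKO library was under each CTR2 library. The core subunit Ndufs3 changed by -0.97 ± 0.17 and the accessory subunit Ndufa5 by -0.89 ± 0.23, and both fell.

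In the N module, Ndufs1, the largest subunit of the complex and a carrier of iron-sulfur clusters, had 490.2, 432 and 391 CPM in iCKO and 1119, 1099.9 and 1038 CPM in CTR2. Its libraries did not overlap, and its change of -1.30 ± 0.15 (adjusted p = 0.00032) was the lowest of the module. Ndufv1, which binds the flavin and oxidises NADH, changed by -0.86 ± 0.15, and its iron-sulfur partner Ndufv2 by -1.001 ± 0.18. Ndufs4, an accessory subunit whose loss causes Leigh syndrome in humans and a like disease in mice, changed by -0.98 ± 0.19. The accessory subunits Ndufa6, Ndufa12, Ndufs6 and Ndufv3 fell as well, at changes between -1.16 ± 0.20 and -0.82 ± 0.22. Ndufa7 and Ndufa2 did not pass the test, at -0.57 ± 0.21 (adjusted p = 0.057) and -0.53 ± 0.25 (adjusted p = 0.11).

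Of the membrane arm, the distal gene Ndufb10, an accessory subunit with disulfide bonds on the intermembrane side, had 258, 205 and 243 CPM in iCKO and 684, 656 and 628 CPM in CTR2. Its iCKO mean was 35.8% of CTR2, with a change of -1.47 ± 0.15 (adjusted p = 0.00021). Ndufab1, the mitochondrial acyl carrier protein, which also serves fatty acid and iron-sulfur cluster synthesis, had 161, 139 and 172 CPM in iCKO and 383, 389.9 and 364 CPM in CTR2, a change of -1.26 ± 0.15 (adjusted p = 0.00037). Both genes had all iCKO libraries under all CTR2 libraries. The lowest change of the proximal arm was that of Ndufa10, an accessory subunit of the matrix side, with 346, 310.5 and 361 CPM in iCKO and 798, 853 and 758 CPM in CTR2, a change of -1.23 ± 0.14 (adjusted p = 0.00035). Ndufa8, an accessory subunit of the intermembrane side, had 149, 126 and 174 CPM in iCKO and 369, 309 and 306 CPM in CTR2, a change of -1.12 ± 0.17 (adjusted p = 0.0014). Ndufb3 of the distal arm had 76.5, 73.5 and 103 CPM in iCKO and 182, 168 and 168 CPM in CTR2, a change of -1.02 ± 0.17. In these 3 genes, too, the groups did not overlap.

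The membrane arm also held most of the subunits that did not pass the test in iCKO. These were Ndufa1, Ndufc1 and Ndufc2 of the proximal arm, at -0.57 ± 0.23, -0.67 ± 0.26 and -0.62 ± 0.24, and Ndufb2 and Ndufb1 of the distal arm, at -0.57 ± 0.25 and -0.46 ± 0.29. Ndufb1, among the smallest subunits, had 77.4, 64.9 and 138 CPM in iCKO and 158, 108 and 123 CPM in CTR2 (adjusted p = 0.23). Its iCKO replicate 3 lay within the range of CTR2, and so the groups overlapped. The X-linked Ndufa1 had 108, 95.02 and 164 CPM in iCKO and 213, 162 and 174 CPM in CTR2 (adjusted p = 0.071), with iCKO replicate 3 just above the lowest CTR2 library. Without iCKO replicate 3, 49 of the 51 genes fell, against 39 with it, and leaving out any other library gave 29 to 35. The share of all genes that fell without that replicate is not given here. The higher count therefore cannot be read as particular to these genes.

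Ndufa4 was first described as a complex I subunit and is now assigned to cytochrome c oxidase, complex IV. It had 387, 321 and 563 CPM in iCKO and 905, 731 and 706 CPM in CTR2, without overlap, a change of -0.87 ± 0.23 (adjusted p = 0.015). Its paralog Ndufa4l2, known as a hypoxia-induced gene that lowers complex I activity in cultured cells, had 8.79, 12.2 and 16.3 CPM in iCKO and 13.4, 13.4 and 13.1 CPM in CTR2. The iCKO libraries spread around the CTR2 values, and the change of -0.08 ± 0.23 (adjusted p = 0.79) was the closest to 0 among the 51 genes. Of the copies, Ndufab1-ps had 6.63, 6.41 and 8.89 CPM in iCKO and 19.5, 18.02 and 16.8 CPM in CTR2, a change of -1.30 ± 0.19 (adjusted p = 0.00091), near that of its parent Ndufab1. Ndufb4b, with 0.952, 0.981 and 1.40 CPM in iCKO and 3.54, 2.52 and 2.25 CPM in CTR2, and Ndufs6b fell as well, at -1.30 ± 0.31 and -1.18 ± 0.25, while Ndufb4c, with at most 1.09 CPM in any library of this experiment, changed by -0.60 ± 0.53 and did not pass the test.

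**Figure D2:**
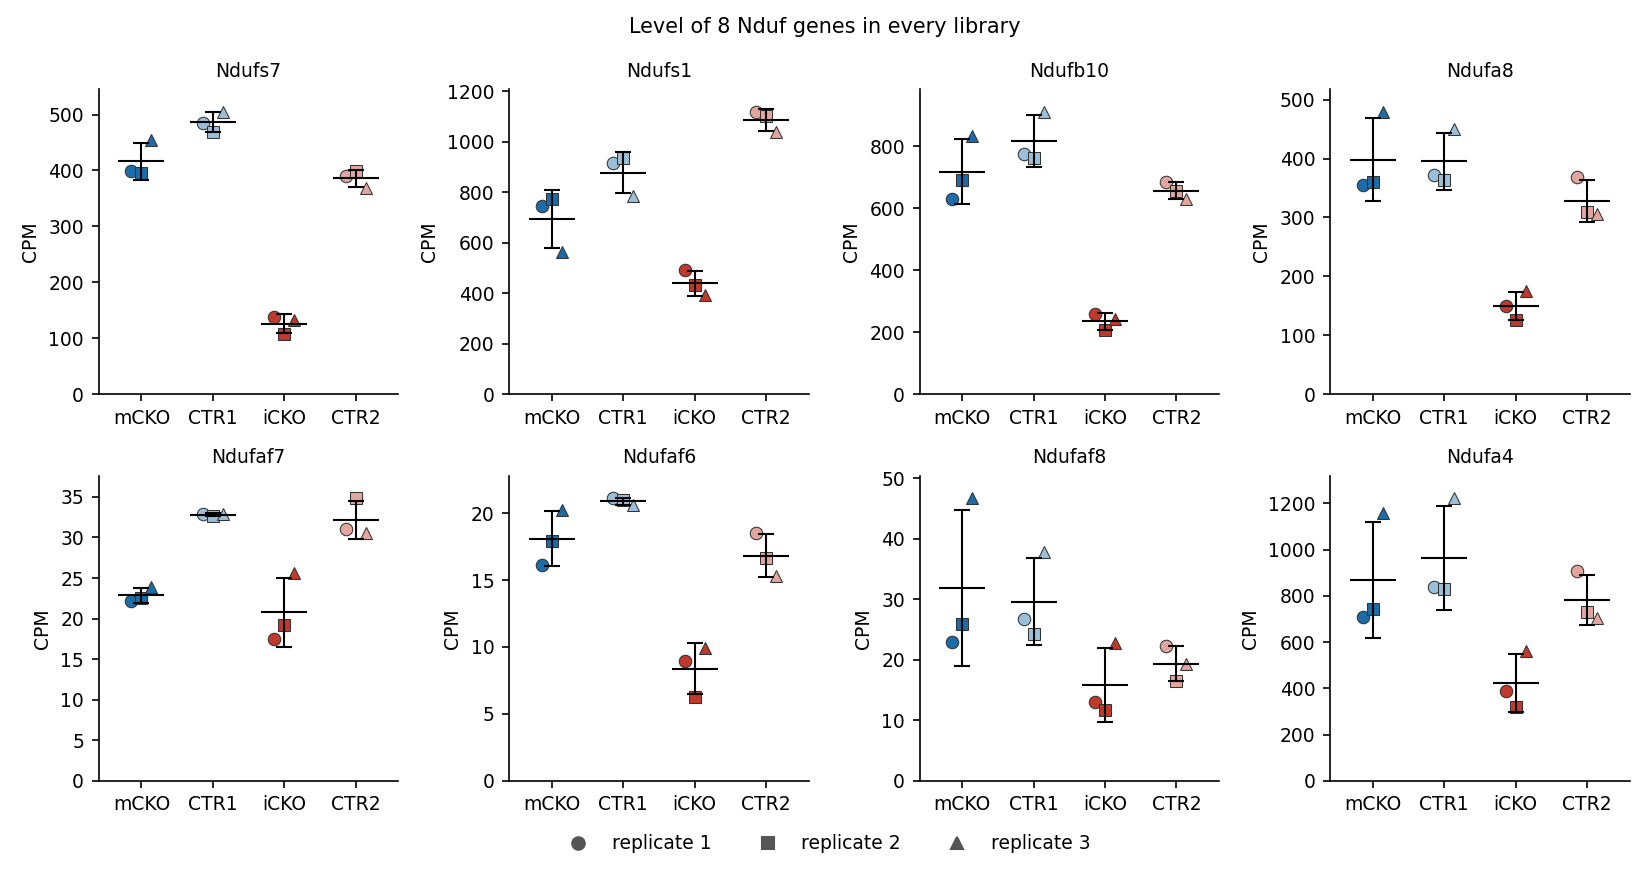
CPM of 8 Nduf genes in each library, by group, with replicate numbers as symbols and the mean with SD (n = 3) as black bars; each vertical axis starts at 0. In Ndufs7, Ndufs1, Ndufb10, Ndufa8, Ndufaf6, Ndufaf7 and Ndufa4 every iCKO library is below every CTR2 library, and in Ndufaf8 the groups overlap.

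Of the 8 assembly factors 5 fell in iCKO, with a median log2 fold change of -0.57 over the 8 beside -0.87 over the 37 subunits, of which 30 fell. Ndufaf1, which works with Ecsit, Acad9 and other proteins on the membrane arm, had 30.7, 27.9 and 35.2 CPM in iCKO and 55.3, 49.2 and 49.5 CPM in CTR2, a change of -0.70 ± 0.15 (adjusted p = 0.0054). Ndufaf6, an early factor of the peripheral arm, had 8.94, 6.27 and 9.92 CPM in iCKO and 18.5, 16.6 and 15.3 CPM in CTR2, a change of -0.99 ± 0.20 (adjusted p = 0.0051), the lowest among the 8. In both genes the iCKO libraries were all under the CTR2 libraries. Ndufaf4, which acts with Ndufaf3 on the Q module, had 49.7, 42.9 and 49.9 CPM in iCKO and 83.4, 57.4 and 68.8 CPM in CTR2, a change of -0.55 ± 0.17 (adjusted p = 0.031). Ndufaf5, known from human cells to hydroxylate an arginine of the NDUFS7 protein, had 12.01, 12.3 and 15.3 CPM in iCKO and 21.6, 17.7 and 17.5 CPM in CTR2, a change of -0.51 ± 0.17 (adjusted p = 0.042). Ndufaf7, a methyltransferase that acts early in assembly in human cells, had 17.5, 19.2 and 25.6 CPM in iCKO and 31.03, 34.8 and 30.6 CPM in CTR2, a change of -0.62 ± 0.18 (adjusted p = 0.023). Their libraries did not overlap either, but the calls of Ndufaf4, Ndufaf5 and Ndufaf7 held under only 6, 4 and 5 of 11 alternative settings.

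The 3 assembly factors that did not pass the test in iCKO were Ndufaf2, Ndufaf3 and Ndufaf8. Ndufaf2, a late-acting chaperone and paralog of the N module subunit Ndufa12, had 9.30, 7.54 and 12.98 CPM in iCKO and 16.3, 14.5 and 14.6 CPM in CTR2 (log2 fold change -0.59 ± 0.22, adjusted p = 0.055). Ndufaf3 had 19.2, 16.7 and 21.02 CPM in iCKO and 30.4, 23.6 and 24.2 CPM in CTR2 (log2 fold change -0.45 ± 0.17, adjusted p = 0.06). In both the libraries did not overlap, by a narrow gap. Ndufaf8, the partner of Ndufaf5, had 12.97, 11.7 and 22.8 CPM in iCKO and 22.3, 16.5 and 19.3 CPM in CTR2, with overlap (log2 fold change -0.28 ± 0.27, adjusted p = 0.43). Exons of Ndufaf2 share 1955 bases with the antisense gene B230220B15Rik, and whether counting used the strand is not given in the sources used here, so reads of the pair may be mixed.

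In iCKO the sum of assembly factor RNA was reduced by less than that of subunit RNA. Summed over the 8 genes it was 160.3, 144 and 193 CPM in iCKO and 279, 230.3 and 239.7 CPM in CTR2, 66.4% of the control mean beside 50.6% for subunits. For each 1000 CPM of subunit RNA there were 22.3, 23.6 and 21.7 CPM of assembly factor RNA in iCKO and 18.01, 15.98 and 17.2 CPM in CTR2, and the groups did not overlap. In the constitutive model the same ratio was 18.5, 19.4 and 18.2 in mCKO and 19.8, 18.8 and 16.6 in CTR1, with overlap. Single subunits averaged between 32.7 and 72.1% of CTR2 in iCKO (median 54.4%) and single Ndufaf genes between 49.8 and 81.7% (median 66.9%), so the classes overlapped. In mCKO subunits averaged between 79.0 and 113% of CTR1 (median 90.4%) and Ndufaf genes between 69.7 and 122% (median 92.0%). Across the 37 subunits the iCKO log2 fold change was lower at higher average log2 CPM (Pearson r = -0.48, Spearman rho = -0.52). Less abundant subunits thus tended to change less. The change was also lower at longer transcript length (Pearson r = -0.32, Spearman rho = -0.35, length as log2). Of the subunits above the median length 17 of 18 fell, and of those at or under it 13 of 19. The parts of level and length in the class difference were not tested. Members are not replicates, so these values are descriptions without a test.

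**Figure D3:**
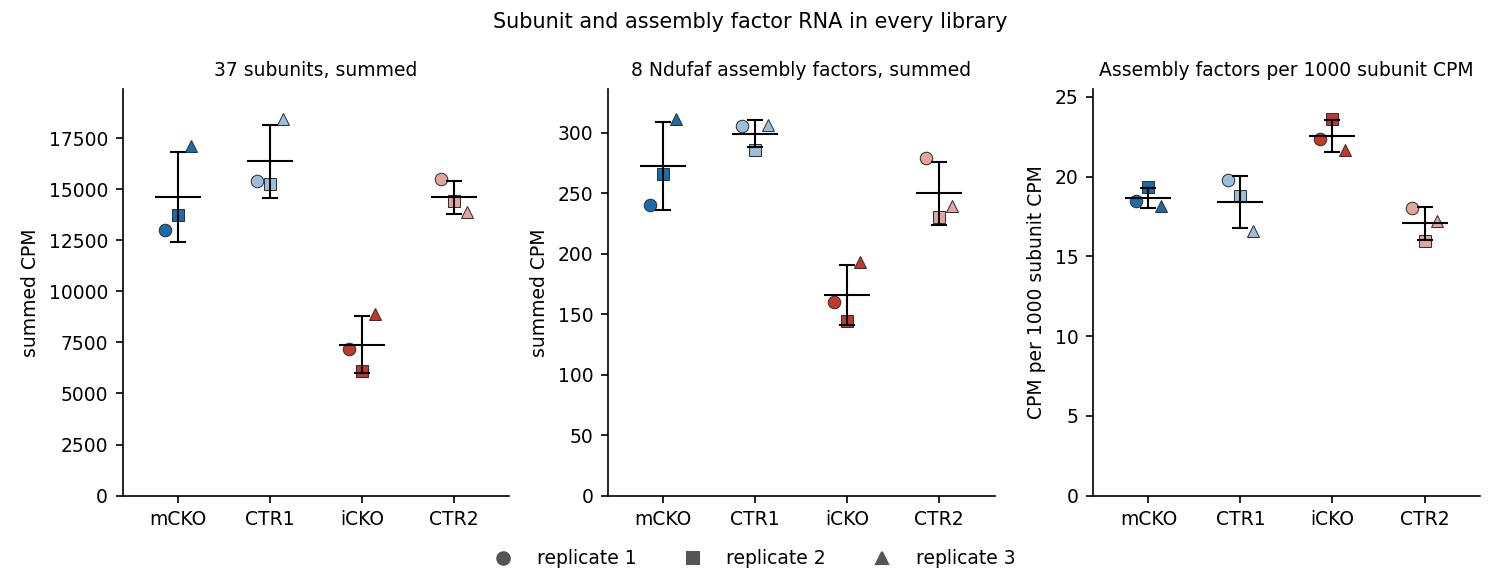
Summed CPM of the 37 subunits (left), summed CPM of the 8 Ndufaf genes (middle) and assembly factor CPM per 1000 subunit CPM (right) in each library, with mean and SD (n = 3) as black bars. In iCKO both sums are below all CTR2 libraries and the ratio, 21.7 to 23.6, is above all CTR2 libraries.

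The regions around the starts of 42 of the 51 genes were given by RefSeq (GRCm38.p6), each 250 bases before to 50 bases after the start. Ndufa2, Ndufa4l2, Ndufab1-ps, Ndufaf6, Ndufb4c, Ndufb9, Ndufs1 and Ndufs6b were among those without an entry. Of motifs known from nuclear genes of the respiratory chain, the YY1 motif AANATGGC occurred on either strand in 14 of the 42 (33.3%, against 6.96% of all 27025 genes with an entry) and the NRF1 motif GCGCANGCG in 10 (23.8%, against 7.03%). The ETS motif CCGGAAG was found in 6 (14.3%, against 9.93%) and the ERR motif AAGGTCA in 3 (7.14%, against 5.38%). The 3 subunits with the lowest iCKO fold changes among genes with an entry, Ndufs7, Ndufb10 and Ndufs8, are shown with Ndufaf8, the assembly factor with the weakest change, each 5′ to 3′ on the strand of the gene with motif matches in capitals.
Ndufs7 (chr10:80249199-80249498, plus strand): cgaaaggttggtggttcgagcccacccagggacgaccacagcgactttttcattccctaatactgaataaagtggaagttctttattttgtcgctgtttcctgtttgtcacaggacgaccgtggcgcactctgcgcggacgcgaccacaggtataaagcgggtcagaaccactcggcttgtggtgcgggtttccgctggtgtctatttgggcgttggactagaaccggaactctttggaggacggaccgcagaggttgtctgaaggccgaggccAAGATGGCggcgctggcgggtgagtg
Ndufb10 (chr17:24724374-24724673, minus strand): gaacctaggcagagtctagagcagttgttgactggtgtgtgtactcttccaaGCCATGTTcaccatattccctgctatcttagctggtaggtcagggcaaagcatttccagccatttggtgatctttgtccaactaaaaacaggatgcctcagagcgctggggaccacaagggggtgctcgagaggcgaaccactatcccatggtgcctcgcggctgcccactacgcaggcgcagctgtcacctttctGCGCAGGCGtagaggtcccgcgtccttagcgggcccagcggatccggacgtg
Ndufs8 (chr19:3912725-3913024, minus strand): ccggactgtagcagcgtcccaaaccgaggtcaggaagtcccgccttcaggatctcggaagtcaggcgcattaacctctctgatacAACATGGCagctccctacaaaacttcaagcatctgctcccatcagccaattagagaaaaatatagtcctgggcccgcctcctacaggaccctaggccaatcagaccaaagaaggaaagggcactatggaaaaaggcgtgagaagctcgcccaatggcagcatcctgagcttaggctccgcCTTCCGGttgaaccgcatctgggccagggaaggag
Ndufaf8 (chr11:120098684-120098983, plus strand): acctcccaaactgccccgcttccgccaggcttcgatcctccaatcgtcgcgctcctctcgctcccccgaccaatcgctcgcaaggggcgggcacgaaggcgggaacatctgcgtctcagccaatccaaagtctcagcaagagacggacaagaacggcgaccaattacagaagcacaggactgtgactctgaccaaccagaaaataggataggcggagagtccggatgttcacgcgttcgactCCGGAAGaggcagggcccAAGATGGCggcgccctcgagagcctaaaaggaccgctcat
The capitals mark a YY1 match in Ndufs7, a YY1 and then an NRF1 match in Ndufb10, a YY1 and then an ETS match in Ndufs8, and an ETS and then a YY1 match in Ndufaf8. In Ndufs7 and Ndufaf8 the YY1 match lies after the start, in transcribed sequence, while in Ndufb10 and Ndufs8 it lies well before it. Subunits with a YY1 match had a median iCKO log2 fold change of -0.92 (12 genes) and those without -0.86 (21 genes). For the NRF1 motif the medians were -0.85 (8 genes) and -0.87 (25 genes). They were -0.89 (4 genes) and -0.87 (29 genes) for the ETS motif. For the ERR motif they were -0.76 (3 genes) and -0.90 (30 genes). A match describes the letters of the window and not a bound site.

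In mCKO ventricles the changes were small. No Nduf gene, and none of the 13353 genes tested (0% higher and 0% lower), passed edgeR's test without the block, in which 2 of the 51 and 1164 of all genes had an unadjusted p under 0.05, and DESeq2 called 1 Nduf gene lower. With the replicate number as a block 9 of the 51 fell and none rose, where 6.45% of all genes fell and 7.32% rose. The 3 mCKO libraries lay below the 3 CTR1 libraries in 10 of the 51 genes and above them in none, where 8.01% and 7.25% of all genes did so. The median log2 fold change was -0.14 over subunits, -0.12 over assembly factors and 0.00 over all genes. Summed subunit RNA was 13003, 13727 and 17129 CPM in mCKO and 15422, 15235 and 18431 CPM in CTR1, 89.3% of the control mean, and each mCKO library was below the CTR1 library of the same number, although the groups overlapped. The median over subunits without the block, -0.13, became 0.03 when CTR1 replicate 3 was left out and -0.30 when mCKO replicate 3 was left out. Its sign thus rested on which of these libraries was kept. With both left out it was -0.19, and 10 of the 51 genes were lower and none higher. Of all 13357 genes tested in that fit, 526 were lower and 514 higher. The cardiomyocyte marker sum stood at 86.7% of CTR1, and the parts of the cardiomyocyte, macrophage, fibroblast and atrial markers in these values were not tested.

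Among the Nduf genes, the clearest change of the constitutive model was in an assembly factor. Ndufaf7 had 22.2, 22.5 and 23.9 CPM in mCKO and 32.9, 32.6 and 32.9 CPM in CTR1, with a wide gap between groups and little spread within them. Its mean was 69.7% of CTR1, with a log2 fold change of -0.51 ± 0.08 with the block (adjusted p = 0.0021) and -0.51 ± 0.09 without it (adjusted p = 0.19). Of the other assembly factors none passed the test in mCKO. Ndufaf1 had 45.1, 47.9 and 48.1 CPM in mCKO and 55.5, 55.8 and 48.9 CPM in CTR1 (-0.17 ± 0.07 with the block). Ndufaf4 had 59.4, 71.01 and 68.8 CPM in mCKO and 86.05, 75.6 and 77.1 CPM in CTR1 (-0.25 ± 0.09). Ndufaf6 had 16.1, 17.9 and 20.3 CPM in mCKO and 21.1, 20.97 and 20.6 CPM in CTR1 (-0.20 ± 0.10). These 3 genes were also without overlap, each with mCKO below CTR1 but with adjusted p-values of 0.15, 0.083 and 0.21.

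The remaining assembly factors overlapped between mCKO and CTR1. Ndufaf2 had 16.6, 18.3 and 25.03 CPM in mCKO and 16.6, 13.3 and 19.4 CPM in CTR1, a change of 0.29 ± 0.11 with the block (adjusted p = 0.1). Ndufaf3 had 39.7, 38.9 and 48.3 CPM in mCKO and 41.9, 39.1 and 43.5 CPM in CTR1 (0.04 ± 0.07). The partners Ndufaf5 and Ndufaf8 both had their highest values in the replicate 3 libraries. Ndufaf5 had 17.9, 23.6 and 29.998 CPM in mCKO and 24.3, 24.3 and 25.8 CPM in CTR1 (-0.07 ± 0.12). Ndufaf8 had 22.9, 25.95 and 46.6 CPM in mCKO and 26.6, 24.3 and 37.7 CPM in CTR1 (0.08 ± 0.10).

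Of the subunits 8 fell in mCKO with the block, among them 4 core subunits of the peripheral arm described here. Ndufs1 had 745, 772 and 562 CPM in mCKO and 913, 935 and 784 CPM in CTR1, a change of -0.34 ± 0.07 (adjusted p = 0.0073). The groups did not overlap. Ndufs3 had 337, 353 and 418 CPM in mCKO and 425, 440.0 and 495 CPM in CTR1, a change of -0.29 ± 0.06 (adjusted p = 0.012). Ndufv1 had 796, 781 and 687 CPM in mCKO and 913, 933 and 879.7 CPM in CTR1, a change of -0.26 ± 0.06 (adjusted p = 0.019). Ndufs7 had 399, 395 and 454 CPM in mCKO and 485, 469.6 and 505 CPM in CTR1, a change of -0.22 ± 0.06 (adjusted p = 0.042). In these 3 core subunits, too, each mCKO library was lower than each CTR1 library. Without the block the adjusted p-values of these 4 lay between 0.58 and 0.7.

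A further 3 subunits that fell in mCKO with the block belong to the membrane arm. Ndufa1 had 187, 206 and 268 CPM in mCKO and 256, 247 and 309 CPM in CTR1, a change of -0.30 ± 0.07 (adjusted p = 0.018). Ndufa10 had 572, 639 and 678 CPM in mCKO and 701, 697 and 825 CPM in CTR1, a change of -0.22 ± 0.06 (adjusted p = 0.042). Ndufb3 had 150.3, 154 and 179 CPM in mCKO and 187, 175 and 205 CPM in CTR1, a change of -0.22 ± 0.06 (adjusted p = 0.041). Only in Ndufa10 of these 3 were the groups without overlap. At the other end, Ndufa11, a proximal arm subunit, had 421, 429 and 543 CPM in mCKO and 381, 384 and 466 CPM in CTR1 (0.19 ± 0.06, adjusted p = 0.064). The copy Ndufb4c had 0.742, 0.75 and 1.55 CPM in mCKO and 0.934, 0.682 and 0.743 CPM in CTR1 (0.35 ± 0.37, adjusted p = 0.58). With Ndufaf2 these 2 had the highest log2 fold changes of the 51 and none of the 3 passed the test. Ndufa4 had 707, 741 and 1159.7 CPM in mCKO and 839, 828 and 1221 CPM in CTR1 (-0.15 ± 0.06, adjusted p = 0.14). Ndufa4l2 had 17.1, 16.2 and 33.7 CPM in mCKO and 17.8, 16.8 and 32.8 CPM in CTR1 (-0.01 ± 0.08, adjusted p = 0.96). In both the groups overlapped, and replicate 3 was the highest library of each group.

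The difference between the models was tested directly, as the change of mCKO against CTR1 minus the change of iCKO against CTR2 in a fit of all 12 libraries. In 23 of the 51 genes the change in mCKO was less negative than that in iCKO at an adjusted p under 0.05, and in none was it more negative, where 11% and 9.88% of the 13871 genes tested passed in these directions. The 23 comprised 18 subunits, 2 assembly factors and 3 copies, and the medians of the difference were 0.77 over subunits, 0.51 over assembly factors and 0.03 over all genes. The count rested on single libraries. It was 12 without CTR1 replicate 2, 13 without iCKO replicate 2 or without CTR2 replicate 1, 14 without CTR1 replicate 1, CTR2 replicate 2 or CTR2 replicate 3, and 15 without mCKO replicate 3 or iCKO replicate 1. It was 14 where library sizes alone set the scale, and no Nduf gene passed in the other direction under any of these settings.

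Ndufs7 showed the difference with the smallest adjusted p, at 1.42 ± 0.18 (adjusted p = 0.00041), its level being 85.5% of CTR1 in mCKO and 32.7% of CTR2 in iCKO. Ndufb10 had 629, 689 and 832 CPM in mCKO and 774, 763 and 911 CPM in CTR1, which overlapped, and a difference of 1.33 ± 0.20 (adjusted p = 0.0012). Ndufa8 had 355, 359.6 and 479.8 CPM in mCKO and 372, 363 and 450.3 CPM in CTR1, nearly the same range, and a difference of 1.17 ± 0.25 (adjusted p = 0.007). In both genes the changes in the 2 models lay more than 1 log2 unit apart. Ndufs8 had 301, 307 and 363 CPM in mCKO and 343, 343 and 424 CPM in CTR1, and a difference of 1.11 ± 0.24 (adjusted p = 0.008). Ndufab1 had 336, 349.9 and 507 CPM in mCKO and 386, 403 and 528 CPM in CTR1, and a difference of 1.16 ± 0.26 (adjusted p = 0.009). Both overlapped in the constitutive model. Ndufa11 had 171, 154 and 208 CPM in iCKO and 315, 305 and 297 CPM in CTR2, without overlap, and stood at 113% of CTR1 in mCKO, a difference of 0.99 ± 0.23 (adjusted p = 0.01). Ndufa10 and Ndufs1, lower in both models, still differed by 1.04 ± 0.19 and 1.01 ± 0.21. The difference with the highest value was that of the copy Ndufb4b, 1.51 ± 0.49 (adjusted p = 0.047), a gene with 2.23, 2.60 and 4.09 CPM in mCKO and 1.92, 2.25 and 3.76 CPM in CTR1.

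Of the assembly factors, Ndufaf1 and Ndufaf6 differed between the models, at 0.56 ± 0.18 (adjusted p = 0.042) and 0.83 ± 0.25 (adjusted p = 0.033). These calls held under 4 and 7 of 18 alternative settings. Ndufaf2, with the largest difference of the 8 at 0.92 ± 0.32, did not pass (adjusted p = 0.065). Ndufaf7 had changes of similar size in both models and a difference of 0.14 ± 0.22 (adjusted p = 0.69), and its standard error allows a difference in either direction. The 3 smallest differences among the 51 genes were those of Ndufa4l2 (0.11 ± 0.47), Ndufaf7 and Ndufa1 (0.31 ± 0.32). Of the 9 genes that fell in mCKO with the block, 8 also fell in iCKO, the exception being Ndufa1. The shared genes are 88.9% of the mCKO list and 20.5% of the 39 genes of the iCKO list. Of all 51 genes, however, 39 fell in iCKO and 9 in mCKO. Most of any 9 of the 51 would thus be shared, and the overlap is no sign of agreement between the models. Across the 37 subunits the fold changes of the models were weakly related (Pearson r = 0.27, Spearman rho = 0.33, a description across genes).

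**Figure D4:**
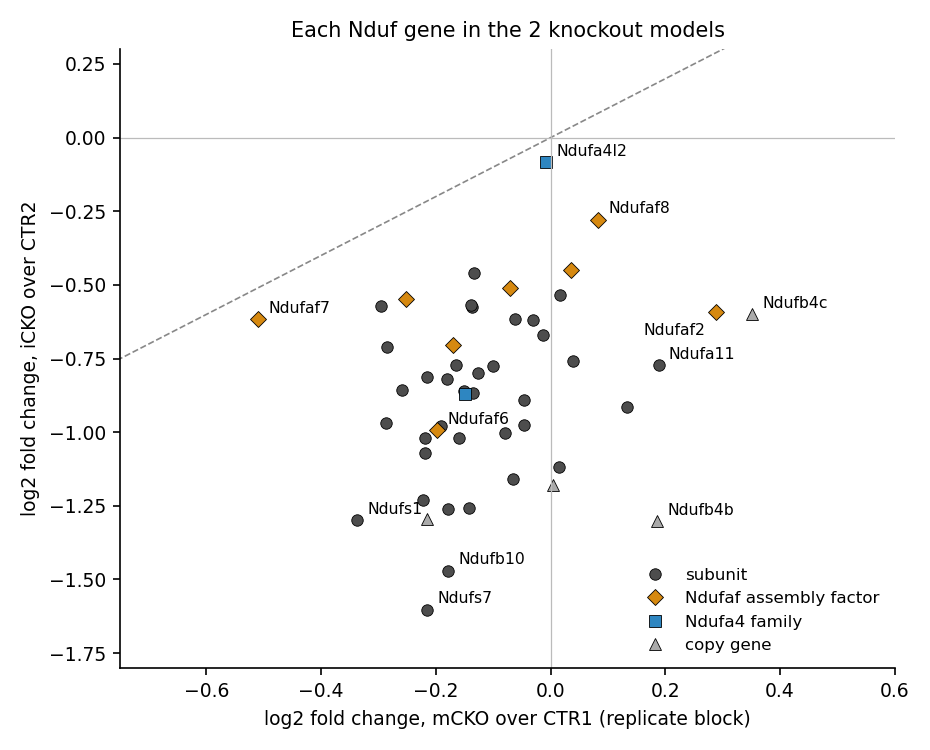
Log2 fold change of 50 Nduf genes in mCKO over CTR1 with the replicate block (horizontal) and in iCKO over CTR2 (vertical), with symbols by class; on the dashed line both changes would be equal. All genes plotted lie below the line, Ndufaf7 closest to it among those that fell in both, and Ndufs7 has the lowest vertical value at -1.60.

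Replicate 3 carried a shift in complex I RNA that was not particular to this complex. Its log2 CPM was above the mean of replicates 1 and 2 in 48 of the 51 genes in mCKO, 44 in CTR1 and 50 in iCKO, but in 2 in CTR2. The median shift over subunits was 0.45 in mCKO, 0.30 in CTR1, 0.55 in iCKO and -0.11 in CTR2, where that over all genes lay between -0.02 and 0.01 in the 4 groups. The median shift over assembly factors was 0.28 in mCKO, 0.05 in CTR1, 0.36 in iCKO and -0.09 in CTR2. The summed subunits of complexes II to V shifted likewise. They stood at 40625, 42525 and 50169 CPM in mCKO and 47931, 47625 and 55450 CPM in CTR1. In iCKO they stood at 23336, 20038 and 26569 CPM, and in CTR2 at 49061, 48199 and 45629 CPM. Ndufs1 had the lowest shift of all 51 genes in mCKO (-0.43), CTR1 (-0.24) and iCKO (-0.23). Gene by gene, the shifts of mCKO and CTR1 were nearly alike over the 37 subunits (Pearson r = 0.98, Spearman rho = 0.97), and those of mCKO and iCKO less so (r = 0.71, rho = 0.62), as descriptions across genes measured in the same libraries. The cardiomyocyte marker sum went the other way in mCKO and CTR1, where replicate 3 had the lowest of the 3 values (102708, 104390.0 and 74016 CPM in mCKO and 116588, 120199 and 87556 CPM in CTR1). What sets replicate 3 apart is not given in the labels, and its part in the results was not tested beyond the values without it.

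**Figure D5:**
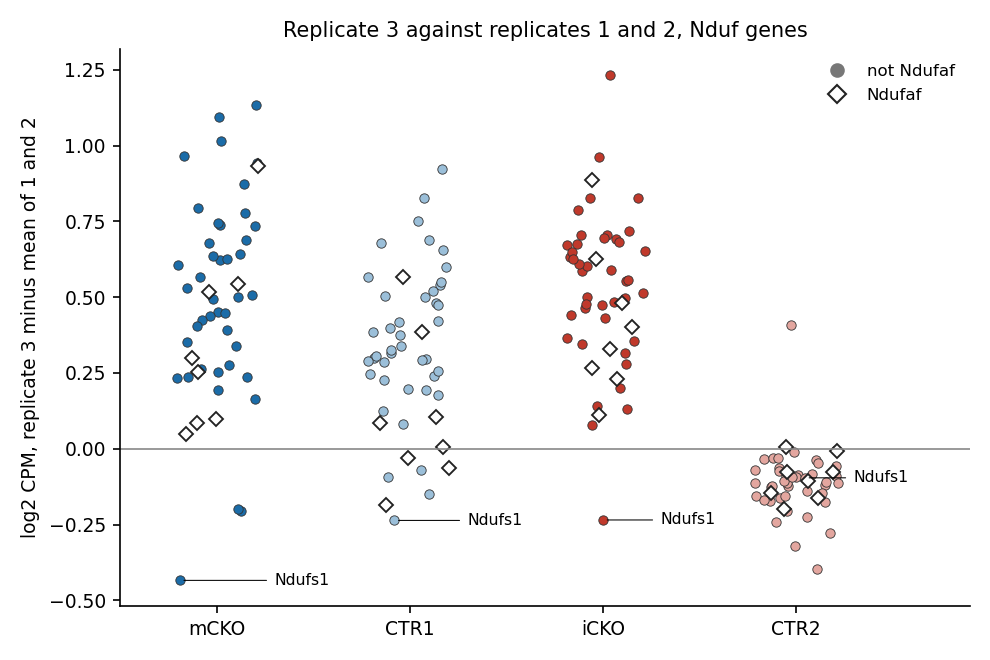
Log2 CPM of replicate 3 minus the mean of replicates 1 and 2 of its group for 50 Nduf genes, with Ndufaf genes as open diamonds and horizontal scatter for legibility only. Most points are above 0 in mCKO, CTR1 and iCKO and below 0 in CTR2, and Ndufs1 is the lowest point of the first 3 groups.

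Subunit RNA set against the cardiomyocyte marker RNA of the same library gave 116, 119 and 167 CPM per 1000 in iCKO and 133, 138 and 126 CPM per 1000 in CTR2, and the groups overlapped through replicate 3 of iCKO. In mCKO it gave 127, 132 and 231 CPM per 1000 and in CTR1 132, 127 and 211 CPM per 1000, with replicate 3 high in both. The other complexes of the chain changed as well. Of 39 tested subunit genes of complexes II to V, 34 fell in iCKO (median -0.98) and 11 fell in mCKO with the block (median -0.14). In 20 the test of the difference found a less negative change in mCKO than in iCKO. Over all genes tested the shares were 19.5% in iCKO, 6.45% in mCKO with the block and 11% in the difference. The sum of the 39 genes was 88.3% of CTR1 in mCKO and 48.9% of CTR2 in iCKO, near the 89.3% and 50.6% of the complex I subunits.

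Assembly factors of complex I that do not carry the Ndufaf name were taken as a further list. Of 9 tested, 6 fell in iCKO and none rose, with a median log2 fold change of -0.72. Of all genes tested in iCKO 19.5% fell and 25.2% rose. Acad9, an acyl-CoA dehydrogenase relative that binds Ndufaf1 and Ecsit, had 42.2, 32.9 and 32.9 CPM in iCKO and 68.9, 60.8 and 64.5 CPM in CTR2 (-0.84 ± 0.15, adjusted p = 0.0027), and Ecsit changed by -0.83 ± 0.14. Nubpl, which is needed to supply the complex with iron-sulfur clusters, had 4.47, 4.07 and 6.05 CPM in iCKO and 11.2, 9.99 and 11.9 CPM in CTR2, the lowest change of the list at -1.17 ± 0.21 (adjusted p = 0.0026). Foxred1, an oxidoreductase-like assembly factor, changed by -1.04 ± 0.13, Tmem186 by -0.66 ± 0.13 and Tmem70, which also serves the assembly of ATP synthase, by -0.72 ± 0.14. All of these had iCKO libraries below the CTR2 libraries. The other 3, Tmem126b at -0.44 ± 0.20 (adjusted p = 0.1), Dmac1 at -0.12 ± 0.19 (adjusted p = 0.64) and Timmdc1 at 0.02 ± 0.17 (adjusted p = 0.93), did not pass the test. In mCKO with the block Acad9 was the 1 of the 9 called lower, a share near the 6.45% of all genes, at -0.23 ± 0.07 (adjusted p = 0.047), with 53.1, 50.1 and 44.8 CPM in mCKO and 62.8, 64.3 and 49.2 CPM in CTR1.

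Of 10 transcription regulators of nuclear mitochondrial genes, 6 fell in iCKO, where 19.5% of all genes tested fell. Ppargc1a, the coactivator PGC-1alpha, had 92.8, 66.7 and 35.2 CPM in iCKO and 192, 476 and 192 CPM in CTR2 (-2.13 ± 0.45, adjusted p = 0.0054), with CTR2 replicate 2 far above the other controls. The oestrogen-related receptors, which bind the ERR motif, all fell. Esrra had 87.5, 72.8 and 79.97 CPM in iCKO and 198, 183 and 183 CPM in CTR2 (-1.22 ± 0.14), and Esrrb and Esrrg changed by -2.02 ± 0.23 and -1.50 ± 0.30. Ppara, a receptor that drives fatty acid oxidation genes, changed by -1.84 ± 0.27, and Tfam, which maintains and transcribes mitochondrial DNA, by -0.50 ± 0.15. Nrf1, Gabpa, Yy1 and Ppargc1b did not pass the test, at -0.13 ± 0.17, -0.30 ± 0.20, -0.17 ± 0.14 and -0.04 ± 0.42. In mCKO with the block 2 of the 10, Esrra and Ppara, fell, where 6.45% of all genes tested fell. Esrra had 159, 166 and 159.8 CPM in mCKO and 235, 211 and 229 CPM in CTR1, without overlap (-0.47 ± 0.07, adjusted p = 0.0016). Ppara, whose libraries overlapped, had 125, 121 and 67.4 CPM in mCKO and 136, 166 and 95.5 CPM in CTR1 (-0.34 ± 0.08, adjusted p = 0.018).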

How the data were processed

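The authors deposited raw read counts per gene in 2 tables, 1 for mCKO and CTR1 and 1 for iCKO and CTR2, with 3 libraries per group. Libraries were prepared from Trizol-extracted total RNA with a stranded mRNA kit, per the labels' protocols. The submitters' processing notes name HISAT2, DESeq and GRCm38. How reads were counted, and with which annotation and strand setting, is not given in the sources used here. Exons of 18 of the 51 genes overlap an antisense gene and those of 3 (Ndufb2, Ndufb8 and Ndufb9) a gene on the same strand, so their counts are uncertain.

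The deposited counts were filtered (filterByExpr, minimum count 10 and minimum total 15), TMM-scaled and tested with edgeR 4.0.16 in R 4.3.3, by quasi-likelihood tests with robust fits and Benjamini-Hochberg adjustment over all genes of each table at 0.05. The difference between models was fitted over the 16673 genes shared by both tables before filtering, on all 12 libraries. Standard errors are the log2 fold change over the square root of F. DESeq2 1.42.0, other scalings, no filter, a replicate block and leaving out libraries were alternatives. The edgeR fits were also run on simulated counts. Those had no replicate 3 shift and no pairing, so they cannot show how the replicate block acts on such a shift. Sums, ratios and motifs were not simulated. Depth was 19682268 to 25871882 counts per library, with no 2 replicates agreeing within sampling noise.

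Replicate numbers were taken to pair mCKO with CTR1, since the deviations of same-numbered libraries from their group means correlated at 0.46, 0.53 and 0.82, all above 0.1. The numbers 1 and 2 were not told apart, since mCKO 1 with CTR1 2 gave 0.55 and mCKO 2 with CTR1 1 gave 0.53, so the pairing rests on replicate 3. In iCKO and CTR2 these correlations were 0.06, -0.09 and -0.16, and no pairing was assumed. Per-library values are given for all Ndufaf genes, Ndufa4 and Ndufa4l2, up to 8 called genes with the smallest adjusted p per comparison, and the 3 highest and 3 lowest fold changes, with a few others named after their values were seen (Ndufa8 and Ndufb3 in iCKO, and Ndufs6b, Ndufa6 and the like by fold change alone). The values of 1 gene, kept in counts, medians and sums, are not reported here. The genes and lists were chosen with earlier results of these data known. Gene lengths and overlaps are from the GRCm38 annotation, which matched 50 of the 51 genes.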

Additional observations from a re-analysis of the deposited data

Results flagged for a closer look

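In 23 Nduf genes the change in mCKO differed from that in iCKO by the test of the difference itself (mCKO over CTR1 minus iCKO over CTR2, edgeR's quasi-likelihood test, adjusted p under 0.05, 3 libraries per group). In the Q and N modules the differences included 1.42 for Ndufs7, 1.11 for Ndufs8, 0.72 for Ndufs3, 1.01 for Ndufs1, 0.63 for Ndufv1, 0.96 for Ndufv2, 0.96 for Ndufs4, 1.13 for Ndufa6 and 1.10 for Ndufa12 (log2). Among genes counted with the membrane arm it was 1.33 for Ndufb10, 1.16 for Ndufab1, 1.17 for Ndufa8, 1.04 for Ndufa10, 0.99 for Ndufa11, 0.77 for Ndufa9 (itself of the peripheral arm), 0.90 for Ndufb8 and 0.83 for Ndufb3. Among copies it was 1.51 for Ndufb4b, 1.12 for Ndufab1-ps and 1.23 for Ndufs6b, and among assembly factors 0.56 for Ndufaf1 and 0.83 for Ndufaf6. The models differ in tamoxifen, form of Cre and duration of the loss of Ddx5, and may differ in age, which is not given for iCKO and CTR2; these cannot be told apart here.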

How the results depend on the processing

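In mCKO the count of lower Nduf genes, 0 without the block, was 1 with DESeq2, 9 with the replicate block and 10 with replicate 3 of both groups left out. Of all genes tested, 6.45% were lower with the block, and 526 of 13357 with replicate 3 of both groups left out. Leaving out single libraries gave 0 throughout, with medians of -0.30 to 0.03 over subunits and of -0.26 to -0.02 over assembly factors. In iCKO 29 to 49 genes were lower with a library left out, with medians of -1.13 (without iCKO replicate 3) to -0.76 over subunits and -0.76 to -0.47 over assembly factors, and 40 were lower with the replicate block, whose numbers do not pair these libraries. Shares over all genes are not given for fits with a single library left out, so shifts of these counts cannot be read as particular to Nduf genes. For the difference between models the count of 23 was 14 with library sizes only, 32 with the replicate block and 12 to 34 with a library left out (14 without CTR1 replicate 1, CTR2 replicate 2 or CTR2 replicate 3, 12 without CTR1 replicate 2, 15 without mCKO replicate 3 or iCKO replicate 1, 13 without iCKO replicate 2 or CTR2 replicate 1), with medians of 0.63 to 1.01 over subunits and 0.34 to 0.67 over assembly factors. The cause was not tested. The mCKO subunit median thus changed sign without CTR1 replicate 3, and no Nduf gene was called higher in a knockout. Scaling by library sizes only moved the median of all genes to 0.24 in iCKO, 0.08 in mCKO and -0.14 in the difference, with 71.5% against 56.4% of iCKO calls higher and 34.0% against 52.6% of the calls in the difference; under it 34 of the 39 lower Nduf genes of iCKO were still called lower. With 3 libraries per group, standard errors near 0.2 in iCKO limit what changes under about 0.5 can show.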
